A study of Arabidopsis thaliana with 6 samples.

Results

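The antenna, photosystem and Rubisco activase genes described here are 6 nuclear genes of Arabidopsis thaliana, each of which the platform annotation paired with 1 probe set of its own. They were chosen by name as nuclear photosynthesis genes, with earlier results of these data known. All 6 of 6 were found among 13356 genes with a probe set of their own on the array. They are LHCB4.1 (AT5G01530, probe set 251082_at), LHCB4.2 (AT3G08940, 258993_at), LHCB4.3 (AT2G40100, 265722_at), PSAN (AT5G64040, 247320_at), PSBY (AT1G67740, 245195_at) and RCA (AT2G39730, 245061_at).

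In the thylakoid membrane of the chloroplast, antenna proteins of the LHC family bind chlorophyll and carotenoids and pass the energy of absorbed light to photosystems I and II, whose electron transport feeds carbon fixation by Rubisco in the stroma. The antenna proteins and many small photosystem subunits are encoded in the nucleus and imported, whereas most proteins of the photosystem cores and the large subunit of Rubisco are encoded in the chloroplast genome. The LHCB4 genes encode CP29, a monomeric antenna protein that lies between the photosystem II core and the outer LHCII trimers. PSAN encodes a lumenal subunit of photosystem I, PSBY encodes small membrane proteins of photosystem II, and RCA encodes the ATPase that removes inhibitory sugar phosphates from Rubisco.

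Transcript levels come from 6 ATH1 arrays (Affymetrix), 1 for each sample, of which 3 were labelled ASL9-ox and 3 wildtype. The ASL9-ox plants are labelled as a transgenic line that overexpresses ASL9, a transcription factor gene of the LBD family, and the wild-type plants as Col-0, stock N1092. All plants were seedlings of 2 weeks grown upright on MS agar, and the tissue label names aerial parts. Neither the promoter of the transgene, the number of lines nor the accession of the ASL9-ox line is given in the labels used here, nor do they say whether samples of 1 group were grown separately. The p-values below therefore cover the spread between the deposited samples alone, which may be technical.

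Signals are linear MAS5 values in arbitrary units, scaled so that the mean of each array without its lowest and highest 2% was 100.01. The median signal was 36.3 to 37.0 in ASL9-ox and 34.3 to 35.9 in wildtype. No probe set was paired with ASL9, so the labels could not be checked through the overexpressed gene, and every direction below rests on them. The unnamed probe set with the largest change, 262704_at, read 10.9 ± 3.56 under the label ASL9-ox and 5101 ± 162 under the label wildtype (SD, n = 3 each), and which gene it reads was not tested. If the labels were exchanged, every sign below would be turned round. Of the tissue markers, PYK10, which encodes an endoplasmic reticulum beta-glucosidase typical of roots, read 408 to 453 in ASL9-ox and 2847 to 3168 in wildtype, while the root hair genes EXPA7 and EXPA18 stayed at or below 13.3 on every array. The summed signal of these 3 root markers was 414 to 470 in ASL9-ox and 2851 to 3186 in wildtype, nearly all of it from PYK10. Of the marker names listed, the annotation paired only 3 of 16 for roots and 2 of 19 for seeds with a probe set of their own. The array labelled wildtype replicate 2 stood apart through seed genes, with 504 for OLEO3 and 806 for PAP85 against at most 9.88 on the other arrays, and each test below was repeated without it. The part of these marker differences in the results below was not tested.

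All 6 genes had higher signals on the arrays labelled ASL9-ox than on those labelled wildtype, and for none of the 6 did the ranges of the groups overlap. The rises ran from about 1.1-fold to about 2.1-fold. The increase was largest for LHCB4.3 and LHCB4.2, intermediate for PSAN and LHCB4.1, and smallest for PSBY and RCA. Differences are given as ASL9-ox minus wildtype on the log2(signal + 16) scale, and folds are taken from them. "Rose" and "fell" are used for an adjusted p below 0.05 in limma's moderated test, adjusted by the Benjamini-Hochberg method across the 17059 probe sets tested. All 6 genes passed the filter on dim probe sets and rose at this threshold. Because the 6 were chosen with earlier results of these data known, this count is no test of photosynthesis genes as a class. Over all probe sets tested 41.7% passed, 24.6% rising and 17.0% falling, and 32.8% had ranges that did not overlap with ASL9-ox higher. A call was therefore not rare on these arrays. The median difference over all of them was 0.078. In tissue RNA, a higher share of green cells and more of the transcript per cell cannot be told apart.

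**Figure D1:**
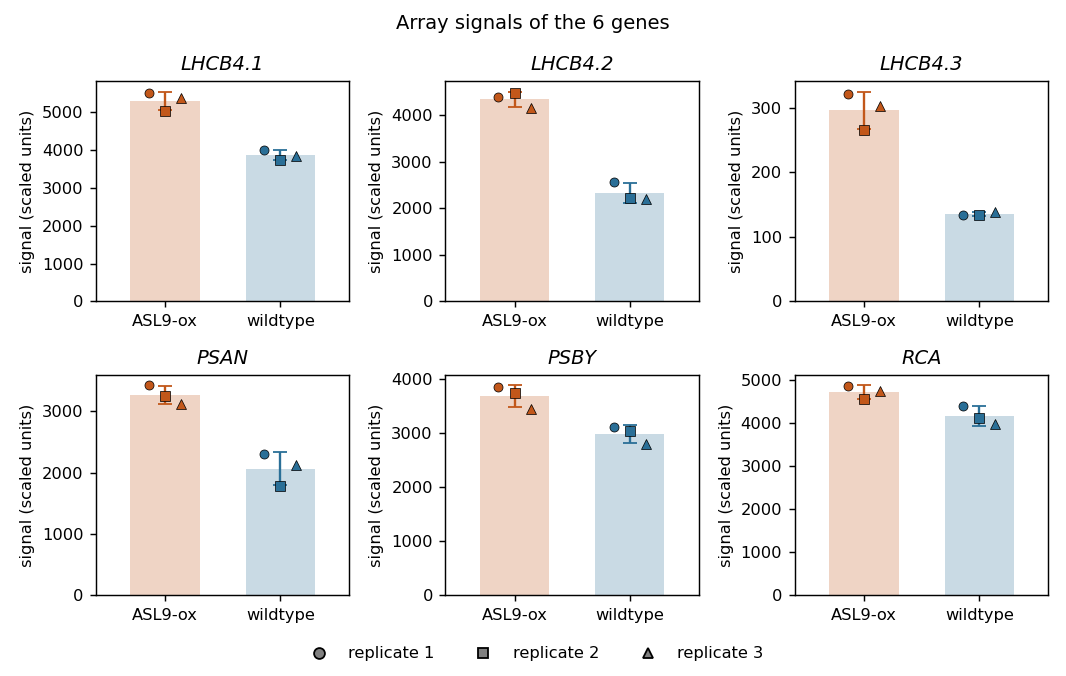
Signal of each of the 6 genes on each array (y axis, scaled units, starting at 0) for ASL9-ox and wildtype. Bars are group means, error bars are SD (n = 3), and the marker shape gives the replicate number. In every panel the 3 ASL9-ox arrays lie above the 3 wildtype arrays, most widely for LHCB4.3 and LHCB4.2 and least for RCA.

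Among the antenna genes, LHCB4.3 encodes a CP29 isoform that is shorter at its C-terminal end than the products of LHCB4.1 and LHCB4.2. It read 322, 265 and 302 on the arrays labelled ASL9-ox, replicates 1 to 3, against 134, 133 and 139 on those labelled wildtype. The wild-type values were nearly equal, with a highest to lowest ratio of 1.04, and the lowest ASL9-ox value was well clear of them. The means were 297 ± 28.7 in ASL9-ox and 135 ± 3.3 in wildtype (SD, n = 3 each). The difference was 1.04 ± 0.09 on the log2 scale (SE), with a 95% confidence interval of 0.85 to 1.24 and a limma adjusted p of 1.84e-05, which corresponds to 2.06-fold.

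LHCB4.2 encodes a full-length CP29. Its signals were 4384, 4482 and 4154 in ASL9-ox and 2568, 2222 and 2200 in wildtype. Wildtype replicate 1 was the highest of its group and still lay far below every ASL9-ox array. Means were 4340 ± 168 in ASL9-ox and 2330 ± 207 in wildtype (SD, n = 3 each), a difference of 0.90 ± 0.07 (SE), with an interval of 0.73 to 1.06 and a limma adjusted p of 1.95e-05. This was 1.86-fold.

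LHCB4.1, which encodes the other full-length CP29, read 5502, 5021 and 5376 in ASL9-ox and 3996, 3735 and 3850 in wildtype. Replicates of either group lay close together, and the groups were separate. Means were 5299 ± 249 in ASL9-ox and 3860 ± 131 in wildtype (SD, n = 3 each). The difference of 0.46 ± 0.06 (SE; interval 0.32 to 0.59) was 1.37-fold, with a limma adjusted p of 0.00033. With quantile normalization it was 0.19, with an adjusted p of 0.0218, and it passed the threshold under all 19 alternatives tried.

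The LHCB4 paralogs were also set against each other within each array, where a scale factor of the whole array cancels apart from the pseudocount, and shifts that depend on brightness do not. LHCB4.2 lay 0.33, 0.16 and 0.37 log2 units below LHCB4.1 on the ASL9-ox arrays and 0.63, 0.75 and 0.80 units below it on the wildtype arrays. The LHCB4.2 to LHCB4.1 ratio was thus closer to 1 on every ASL9-ox array than on any wildtype array, and the group means differed by 0.44 (0.53 with quantile normalization). For LHCB4.3 against LHCB4.1 the group means differed by 0.59, again with separate ranges, -4.16 to -4.03 in ASL9-ox and -4.74 to -4.64 in wildtype. For LHCB4.3 against LHCB4.2 the group means differed by 0.15, and the ranges overlapped, since ASL9-ox replicate 2 lay within the wildtype range. The direction of this last difference turned with a pseudocount of 64, to -0.030. The 3 pairs had exact two-sided permutation p-values of 0.1, 0.1 and 0.3 (adjusted over the 3 pairs, 0.15, 0.15 and 0.3). With 3 arrays against 3 the smallest p the design allows is 0.1, so none of these pairs could pass a threshold of 0.05. These ratios show unequal change between probe sets and say nothing of which transcript is the more abundant. Whether probe sets of these similar genes share hybridization signal, or the brightest ones are compressed, was not tested.

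**Figure D2:**
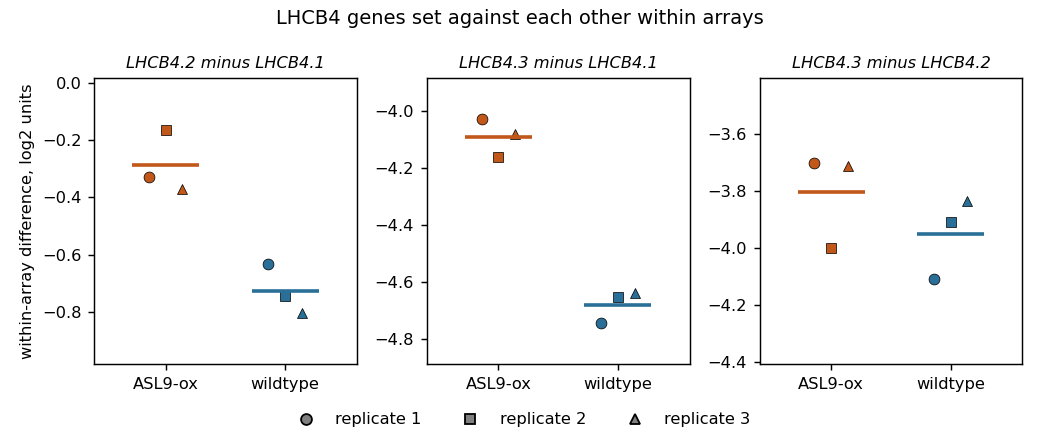
Within-array difference in log2(signal + 16) between 2 LHCB4 genes (y axis, each panel spanning 1 log2 unit) for ASL9-ox and wildtype, with 1 point per array, marker shape for the replicate number and a line at the group mean. The groups are separate for LHCB4.2 minus LHCB4.1 and for LHCB4.3 minus LHCB4.1, and overlap for LHCB4.3 minus LHCB4.2.

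Of the 2 photosystem genes, PSAN had the larger difference. The PsaN protein lies on the lumenal side of photosystem I, where plastocyanin delivers electrons. Signals were 3428, 3261 and 3123 in ASL9-ox and 2299, 1784 and 2122 in wildtype. The groups did not overlap, and the wild-type arrays were the more scattered, with an SD of 12.7% of their mean against 4.66% in ASL9-ox. Means were 3271 ± 152 in ASL9-ox and 2068 ± 262 in wildtype (SD, n = 3 each), a difference of 0.66 ± 0.09 (SE; interval 0.45 to 0.87; limma adjusted p = 0.000463), or 1.58-fold. The lowest wild-type value came from replicate 2, the array with the seed transcripts, and without it the difference was 0.56 with an adjusted p of 0.00298.

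PSBY read 3843, 3742 and 3452 in ASL9-ox and 3116, 3028 and 2797 in wildtype. The lowest ASL9-ox array exceeded the highest wildtype array by a gap smaller than the range within ASL9-ox. Means were 3679 ± 203 in ASL9-ox and 2980 ± 165 in wildtype (SD, n = 3 each), a difference of 0.30 ± 0.07 (SE; interval 0.15 to 0.46; limma adjusted p = 0.00655), or 1.23-fold. The call was lost when arrays were centred on hybridization controls, the bacterial and phage transcripts added before hybridization, with adjusted p-values of 0.0772 and 0.0882 for the 2 families of such probe sets. These controls themselves varied between replicates. Within wildtype their log2 means ran from 7.23 to 7.51 and from 7.82 to 8.01, while the group means differed by 0.072 and 0.093. Over all probe sets 5100 and 5458 passed with them, in place of 7108. The part of this spread in the lost call was not tested.

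RCA had the smallest difference. It read 4865, 4559 and 4736 in ASL9-ox and 4403, 4111 and 3968 in wildtype, so that the lowest ASL9-ox array stood little above the highest wildtype array. Means were 4720 ± 154 in ASL9-ox and 4161 ± 222 in wildtype (SD, n = 3 each), a difference of 0.18 ± 0.06 (SE; interval 0.04 to 0.32; limma adjusted p = 0.0396), or 1.13-fold. The call was lost under 13 of 19 alternatives, and with quantile normalization the difference was -0.093 (adjusted p = 0.222). It was also lost without ASL9-ox replicate 1, 2 or 3 and without wildtype replicate 2 or 3, with adjusted p-values of 0.116, 0.0583, 0.0949, 0.0959 and 0.147. The direction given for RCA therefore depends on how the arrays are scaled.

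**Figure D3:**
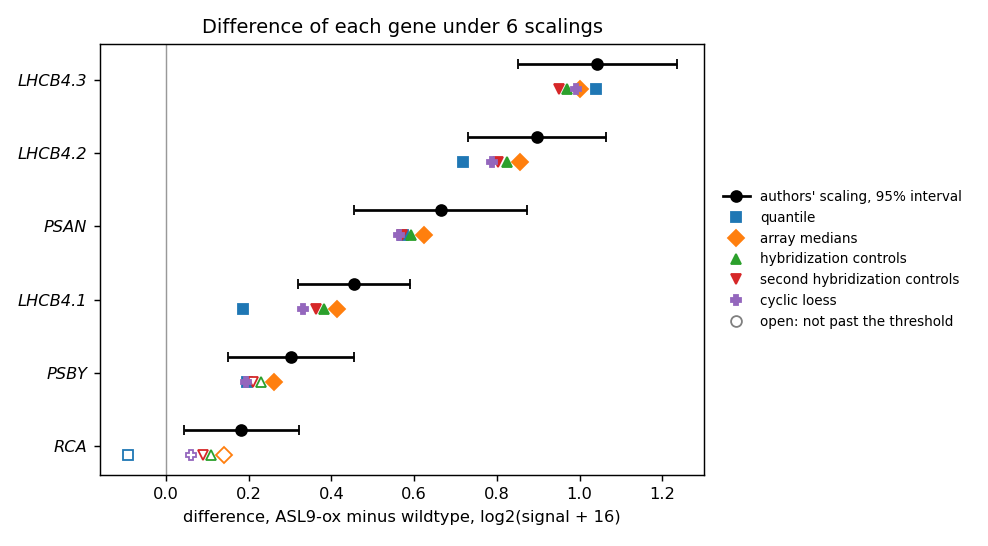
Difference between ASL9-ox and wildtype for each gene (x axis, log2 units), ordered from the largest at the top. Black points with 95% confidence intervals use the authors' scaling, coloured markers use 5 other scalings, and open markers did not pass the threshold of 0.05. LHCB4.3, LHCB4.2, PSAN and LHCB4.1 pass under all of them, PSBY loses the call with both sets of hybridization controls, and RCA passes with the authors' scaling alone and lies below 0 with quantile normalization.

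Except for LHCB4.3, the genes had mean signals above 1000, so they were also set beside bright probe sets as a whole. Among the 577 probe sets with a mean signal of at least 1000, 38.5% rose and 17.2% fell, and the median difference was 0.13, with quartiles of -0.04 and 0.33. LHCB4.2, PSAN and LHCB4.1 lay above the upper quartile of the bright probe sets, whereas PSBY (0.30) and RCA (0.18) lay between the median and the upper quartile. Among the 5941 probe sets with mean signals from 100 to 1000, to which LHCB4.3 belongs, 28.1% rose, and the quartiles were -0.21 and 0.29. A rise of the size seen for PSBY and RCA was thus common among bright probe sets. The median of the bright probe sets was 0.059 with quantile normalization, 0.058 and 0.037 with the 2 families of hybridization controls and 0.043 with cyclic loess, a normalization that takes out shifts depending on brightness. Higher values made up 59.1% of all calls with the authors' scaling, 45.6% and 43.1% with the 2 families of hybridization controls and 45.6% with cyclic loess. With cyclic loess LHCB4.3, LHCB4.2, PSAN, LHCB4.1 and PSBY still rose, by 0.99, 0.79, 0.56, 0.33 and 0.19.

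**Figure D4:**
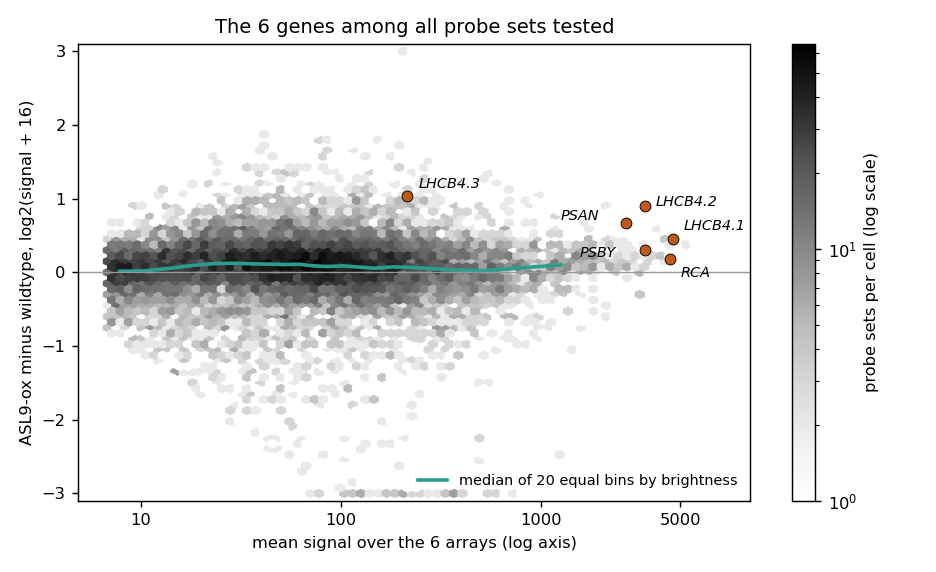
Difference between ASL9-ox and wildtype (y axis, log2 units, values beyond 3 in either direction drawn at 3) against the mean signal over the 6 arrays (x axis, log scale) for 17059 probe sets, with darker cells holding more of them. The green line is the median in 20 bins of equal size, and the 6 genes are marked, 5 of them among the 577 probe sets with a mean of at least 1000.

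Within the groups the highest array was often the same for the 6 genes, while the lowest was not. ASL9-ox replicate 1 gave the highest ASL9-ox value for 5 of the 6 genes, LHCB4.2 being the exception. Wildtype replicate 1 gave the highest wildtype value for 5, LHCB4.3 being the exception. In either group the lowest value came from replicate 2 for 3 genes and from replicate 3 for 3. Of the 16 other nuclear photosynthesis genes described below, wildtype replicate 1 was highest for 11 and ASL9-ox replicate 1 for 4. The share over all probe sets was not counted. Over the 6 arrays the most alike members were PSBY and RCA, with a root mean square difference of 0.081 between their log2 values after each gene was centred on its own mean, and the least alike were LHCB4.3 and RCA, at 0.44. This measure covers both the size of the group difference and the scatter of replicates, and the arrays are shared by all genes. By the same measure each gene had neighbours among the 9455 tested probe sets paired with 1 gene that were closer to it than any other member. For LHCB4.2 the nearest was AT1G51400 (0.038), which read 2738, 2857 and 2429 in ASL9-ox and 1567, 1373 and 1358 in wildtype, followed by PRA1.F1 (0.044). For LHCB4.1 they were AT5G59950 (0.034) and NDB1 (0.037), a mitochondrial NAD(P)H dehydrogenase gene. LHCB4.3 was nearest to GAMMA-VPE (0.058), which encodes a vacuolar processing protease and read 724, 603 and 678 in ASL9-ox against 345, 328 and 353 in wildtype, and then to AT1G18360 (0.069). The nearest to PSAN were AT3G46210 (0.038) and CSLA03 (0.043), a glucomannan synthase gene. Those to PSBY were AT1G09150 (0.021) and AT3G52260 (0.028), and those to RCA were AT4G21620 (0.015) and AT5G19030 (0.016). Small differences such as those of PSBY and RCA find close neighbours easily, since many probe sets lie in that range.

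Other nuclear genes of photosynthesis were matched thinly by name. Of 166 names in 7 lists, some of them synonyms of 1 gene, the annotation paired 16 with a probe set of their own. All 16 were tested. The annotation left 8794 of 22810 probe sets unnamed, and whether these read further photosynthesis genes was not tested. Of these 9 rose, 1 fell and 6 did not pass, with a median difference of 0.24. Over all probe sets tested 24.6% rose and 17.0% fell, and among those with a mean signal of at least 1000, 38.5% rose. The lists, with that of chloroplast-encoded genes below, were also chosen with earlier results of these data known. Among photosystem II genes, PSB27, which encodes a lumenal assembly factor, read 2778, 2597 and 2890 in ASL9-ox and 1722, 1628 and 1796 in wildtype. This was a difference of 0.68 ± 0.07 (SE, limma adjusted p = 5.84e-05), close in size to that of PSAN. PSBW, which encodes a small subunit that stabilizes photosystem II supercomplexes, rose by 0.40. The assembly factor genes LPA2 (0.17, adjusted p = 0.0717) and LPA1 (0.0016) did not pass. On the photosystem I side PSAE-1, which encodes a stromal subunit near the ferredoxin site, had a difference of 0.22 (adjusted p = 0.0353). It lost the call under all 5 other scalings, as RCA did.

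Of the LHC-like genes, LIL3:2 rose by 0.31, and LIL3:1, with 0.046, did not pass. Both encode proteins that hold enzymes of chlorophyll synthesis at the membrane. ATPC1, which encodes the main gamma subunit of the chloroplast ATP synthase, rose by 0.26, and its paralog ATPC2 (0.19) did not pass, nor did PGRL1B (-0.042), which acts in cyclic electron flow. In the Calvin-Benson cycle PRK and SBPASE, which encode phosphoribulokinase and sedoheptulose bisphosphatase, rose by 0.40 and 0.26. PRK read 2711, 3135 and 2959 in ASL9-ox and 2322, 1994 and 2332 in wildtype, a larger difference than that of RCA by value. The thylakoid curvature genes CURT1C and CURT1A rose by 0.49 and 0.28, and CURT1D (-0.20) did not pass. The 1 nuclear gene that fell was HYH, a bZIP transcription factor gene of light signalling, with 35.9, 60.0 and 27.5 in ASL9-ox and 80.9, 64.9 and 77.7 in wildtype, a difference of -0.70 ± 0.18 (SE, limma adjusted p = 0.0139). With centring on either family of hybridization controls 4 of the 16 rose, and without wildtype replicate 3, 5 of 16 did. Of all 17059 probe sets tested, 2325 and 2353 rose with the 2 families and 3214 without wildtype replicate 3, in place of 4204.

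Of the partners of these proteins that are encoded in the chloroplast genome, 33 of 33 listed names were matched. The list leaves out the chloroplast ndh genes. Among these ndhF fell (-0.73, limma adjusted p = 0.0075, mean signal 22.7), while ndhA, ndhD, ndhI, ndhJ and ndhK rose. The ndhC, ndhE, ndhG and ndhH genes did not pass. Of the 33 listed genes 17 rose and none fell (0 by limma, and 0 also at an unadjusted p below 0.05). The other 16 did not pass, and the median difference was 0.33. Ranges did not overlap for 19, all with ASL9-ox higher. Over all probe sets tested 24.6% rose, and 32.8% had ranges that did not overlap with ASL9-ox higher. Among probe sets with a mean signal of at least 1000, 38.5% rose. The largest differences were those of psbB (0.90 ± 0.19, SE), which encodes the CP47 core antenna protein of photosystem II, and of the ATP synthase genes atpH (0.85 ± 0.15) and atpF (0.80 ± 0.17). psbB read 550, 879 and 721 in ASL9-ox and 337, 309 and 481 in wildtype. psbH (0.35, adjusted p = 0.0566) was nearest to the threshold among those that did not pass. For rbcL, which encodes the large subunit of the Rubisco that the RCA protein acts on, the difference was 0.16 (adjusted p = 0.247), and without ASL9-ox replicate 2 it was 0.063 (adjusted p = 0.644). The count of rises was 13 to 17 over the scalings and 14 to 22 with 1 array left out, the highest being without ASL9-ox replicate 1. With cyclic loess petD was called lower (-0.37, adjusted p = 0.0494). Chloroplast transcripts mostly lack the long poly(A) tails from which the labelling starts, so their signals depend on priming, and its part in these values was not tested.

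**Figure D5:**
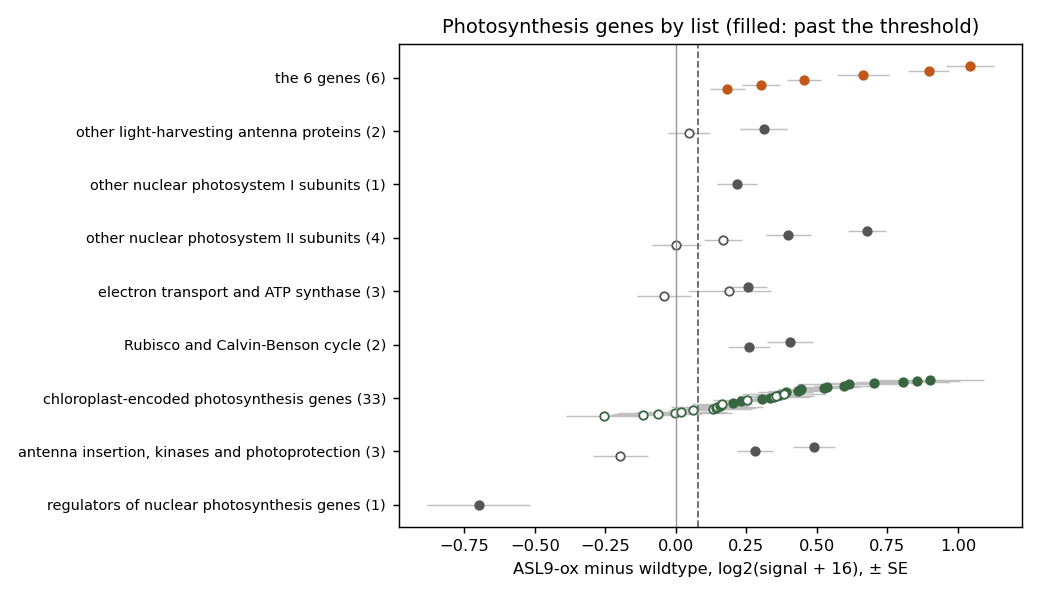
Difference between ASL9-ox and wildtype (x axis, log2 units, with SE) for the 6 genes and for photosynthesis genes in 8 lists, with the number measured in brackets, filled points past the threshold of 0.05 and a dashed line at the median of all probe sets tested (0.078). All 6 genes, 9 of 16 other nuclear genes and 17 of 33 chloroplast-encoded genes lie to the right as filled points, and HYH is the filled point on the left. Over all probe sets tested 24.6% rose and 17.0% fell.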

How the data were processed

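The deposited table held 22810 probe sets on 6 ATH1 arrays. Its intensity values were made by the authors with MAS5 and GCOS, per the submitters' processing notes, whose versions no source used here gives. The values themselves show that each array was scaled to a common trimmed mean, which hides a shift of all transcripts in 1 direction. No detection or saturation calls were used here, and the number of arrays limits the precision.

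Probe sets were named through the platform annotation, which paired 13513 with 1 gene, 503 with several and left 8794 unnamed. Symbols were updated through the RefSeq table of assembly TAIR10.1. Values were transformed to log2(signal + 16), which understates folds of dim genes. All 64 control probe sets were left out, as were the 25% of other probe sets with the lowest mean signal. The model was fitted by limma 3.58.1 (R 4.3.3; lmFit, then eBayes with an intensity trend, 5.05 prior degrees of freedom, two-sided), which was tested on simulated data. Paralogs were compared by exact permutation in scipy 1.17.1. Figures were drawn with matplotlib 3.10.9.

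The members and gene lists were chosen with earlier results of these data known. Named genes are the 6 members, up to 3 called genes with the largest change and the uncalled gene with the smallest p in each list, the 2 nearest neighbours of each member, and the unnamed probe set with the largest change. LPA1, PGRL1B, rbcL and petD were added after their values were seen. So were the ndh genes and the further genes of the chloroplast transcription units, for which no single values under the alternatives are given. The pairing of same-numbered arrays was checked through the correlation of their deviations from the group means.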

Additional observations from a re-analysis of the deposited data

How the results depend on the processing

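LHCB4.1, LHCB4.2, LHCB4.3 and PSAN kept their direction and their call under all 19 alternatives, at 0.19 to 0.49, 0.72 to 0.97, 0.85 to 1.12 and 0.56 to 0.74. The second family of hybridization controls was added as an alternative after seeing the data. With it and with the first family PSBY had differences of 0.21 and 0.23 without a call. RCA was not called with the second family (0.090), the first family (0.11), cyclic loess (0.060) or median centring (0.14). It was not called without a filter, without an intensity trend or with the replicate block either (0.18 in each, adjusted p = 0.115, 0.106 and 0.0648). With quantile normalization it turned to -0.093, and with 1 array left out it ran from 0.15 to 0.22. Of the 6 genes, 4 to 6 were called over the alternatives.

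Over all probe sets 7108 passed, 4204 of them higher and 2904 lower. At a threshold of 0.01, 4581 passed, 2541 of them higher. With hybridization controls 2325 and 2353 were higher in place of 4204. Of the other nuclear genes 4 rose with either family, and 5 to 9 rose and 1 to 2 fell with 1 array left out. Of the 33 listed chloroplast-encoded genes 1 fell with cyclic loess. With a pseudocount of 64 the difference between the changes of LHCB4.3 and LHCB4.2 turned to -0.030 (exact permutation p = 0.7). LIL3:1 turned to -0.026, -0.046 and -0.019 with the 2 families and cyclic loess and ran from -0.0093 (without wildtype replicate 2) to 0.11 with 1 array left out. EXPA18 turned to -0.0043 with the second family, and with 1 array left out it ran from -0.075 to 0.31, below 0 without ASL9-ox replicate 3 and without wildtype replicate 2 (-0.023). For the 34 genes and probe sets named by rule besides the members, LIL3:1 and EXPA18 included, 587 of 642 values kept direction and call. Of the rest, 44 lost the call, 4 gained it and 7 changed sign. Among genes added after their values were seen, LPA1 ran from -0.091 to 0.050, PGRL1B from -0.13 to 0.0099 and rbcL from 0.063 to 0.23, none with a call, and petD from -0.37 to -0.13 with a call under cyclic loess alone. Where no construction shows the cause, the cause was not tested.

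Deviations of same-numbered arrays correlated at -0.12, -0.059 and 0.021, and replicate numbers were therefore not treated as pairs. With the replicate block 6177 probe sets passed. The lack of detection calls limits what can be said of dim genes.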

Other observations

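Which array of a group was high or low was counted for the chloroplast-encoded genes and for the nuclear ones. ASL9-ox replicate 1 gave the lowest ASL9-ox value for 28 of the 33 chloroplast-encoded genes and the highest for 0. For LHCB4.1 to LHCB4.3, PSAN, PSBY and RCA it gave the lowest for 0 and the highest for 5, but for the 16 other nuclear genes the lowest for 5 and the highest for 4. ASL9-ox replicate 2 gave the highest value for 26 of the 33. In wildtype, replicate 2 gave the lowest value for 22 of the 33, and also for 11 of the 16 other nuclear genes and 3 of the 6. The 33 values of an array are therefore not independent of each other. Without ASL9-ox replicate 1, 22 of the 33 rose in place of 17. Over all probe sets 3525 rose without it, in place of 4204.

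Along some transcription units of the chloroplast genome the differences were unequal by value. These genes were chosen after their values were seen, and the values are a description with no test. The SE of a difference ran from 0.056 for atpB to 0.19 for psbB, and unequal change within a unit was not tested. In the psbB unit they were 0.90 for psbB, 0.61 for psbT, 0.35 for psbH, 0.23 for petB and -0.25 for petD, in the order of the genes. petB encodes cytochrome b6 and read 3998 ± 256 in ASL9-ox and 3399 ± 88.9 in wildtype, while petD read 28.5 ± 5.65 in ASL9-ox and 37.2 ± 7.31 in wildtype (SD, n = 3 each). The psbH and petD differences did not pass the threshold. In the unit of atpI, atpH, atpF and atpA the differences were 0.38, 0.85, 0.80 and 0.60, of which that of atpI, at signals of 48.4 ± 15.4 in ASL9-ox and 32.5 ± 1.13 in wildtype, did not pass. The psbE, psbF, psbL and psbJ genes lay close together at 0.52, 0.44, 0.39 and 0.43. The psaA and psaB genes, which encode the reaction centre proteins of photosystem I, had 0.70 and 0.44, and atpB and atpE had 0.33 and 0.20. For psbD and psbC, which encode photosystem II core proteins, the differences were 0.14 and -0.064, and neither passed.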
